A study of Mus musculus with 3 samples.

Results

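Srd5a1, Srd5a2 and Srd5a3 encode the 3 enzymes of the steroid 5-alpha reductase family, and their transcripts were followed over the cell types of the mouse prostate. They were taken by symbol from the 32594 genes counted in every library, and all 3 were found. Whole prostates of C57BL6 mice, labelled 12 to 15 weeks old, had been dissociated and their cells sequenced in droplets (10x Genomics), where each transcript copy is counted once by its unique molecular identifier (UMI). There was 1 library from an Srd5a2 knockout (Srd5a2-/-) and 2 from Srd5a2 heterozygotes (Srd5a2+/-), named here knockout, heterozygote 1 and heterozygote 2. The labels list no treatment. The heterozygotes carried 1 disrupted allele, and no wild-type library was analysed here. All tissue was digested for 2 h at 37 °C with collagenase in a buffer that held a rock inhibitor and dihydrotestosterone, the product of 5-alpha reduction. Neither the deleted part of Srd5a2 nor the number of animals behind a library is given. The p-values below cover these libraries only and rest on variances that the fits share across genes. With so few libraries, a gene's own spread between them adds little to its p-value.

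The 5-alpha reductases use NADPH to reduce a double bond in the first ring of steroids such as testosterone, which gives dihydrotestosterone, a more potent androgen. Srd5a2, the type 2 enzyme, is the form best known from the male urogenital tract, while Srd5a1, the type 1 enzyme, is found in many tissues, skin and liver among them. Srd5a3 is more distant from the other members and is known for its part in making dolichol, the lipid on which the sugar chains for protein N-glycosylation are built.

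In GENCODE vM21 (mm10), Srd5a1 (ENSMUSG00000021594.11) lies on the minus strand of chromosome 13 from 69573449 to 69611442. Srd5a2 (ENSMUSG00000038541.8) lies on the minus strand of chromosome 17 from 74016955 to 74047916. Srd5a3 (ENSMUSG00000029233.15) lies on the plus strand of chromosome 5 from 76140271 to 76155504. The longest annotated models have 5, 5 and 6 exons. Because the 3 genes differed in their pattern over the cell classes, the stretch just before each start site is shown. It is given 5' to 3' on the gene's strand and free of protein-coding exons, from RefSeq's promoters on GRCm38.p6 (all 3 genes matched). The stretches are chr13:69611486-69611713, chr17:74047917-74048110 and chr5:76140023-76140270. Capitals mark the GC box, GGGCGG or CCGCCC.
Srd5a1: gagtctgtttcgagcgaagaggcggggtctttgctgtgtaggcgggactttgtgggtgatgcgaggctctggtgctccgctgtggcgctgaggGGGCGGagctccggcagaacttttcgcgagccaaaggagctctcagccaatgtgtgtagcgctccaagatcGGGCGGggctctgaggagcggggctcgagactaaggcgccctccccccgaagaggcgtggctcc
Srd5a2: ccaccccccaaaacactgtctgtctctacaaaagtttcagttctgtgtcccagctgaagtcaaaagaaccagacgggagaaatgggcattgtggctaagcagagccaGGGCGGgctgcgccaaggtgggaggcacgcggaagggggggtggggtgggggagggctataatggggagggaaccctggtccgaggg
Srd5a3: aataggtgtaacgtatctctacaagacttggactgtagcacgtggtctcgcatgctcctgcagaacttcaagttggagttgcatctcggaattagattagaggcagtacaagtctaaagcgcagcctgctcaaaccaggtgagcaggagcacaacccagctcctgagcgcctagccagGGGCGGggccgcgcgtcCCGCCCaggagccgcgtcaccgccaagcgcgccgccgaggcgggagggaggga
These stretches held 2, 1 and 2 GC boxes, and over all promoters the full 300-base window held at least 1 in 35.7%. In that full window, 250 bases before to 50 after the start, GC content was 63.0%, 62.7% and 63.3%, against a median of 52.7% over 32851 promoters. CpG dinucleotides numbered 24 in Srd5a1, 15 in Srd5a2 and 26 in Srd5a3, against a median of 7. The TATA box TATAAA was found on neither strand in any of these windows, and it occurs in 13.6% of promoters. The CCAAT box occurs in 37.4% of promoters and was found in the window of Srd5a1 only, among these 3 genes.

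The libraries held 13273, 5000 and 13866 barcodes (knockout, heterozygote 1, heterozygote 2) with 129015041, 47601747 and 100801564 UMIs. After filters, 8903, 4523 and 9401 cells were kept. The shallowest barcode had 586, 2466 and 500 UMIs, and pairs of libraries shared 15 to 57 barcodes. Clusters built without the 3 genes were named from marker lists of at least 3 detected markers. All classes were rebuilt this way, so they are marker-defined classes, and the seminal vesicle-like class carries its name on markers alone. That class held 2869, 645 and 846 cells, and different clusters held most of it in the knockout and in the heterozygotes. Levels are UMIs per 1000000 UMIs of the class (CPM) on plain totals, with exact 95% Poisson intervals that cover counting error only. Levels are compared across cells for each gene on its own, since UMI counts are not scaled to gene length.

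Srd5a2, the targeted gene, was nearly absent from the knockout library and checks its label. All barcodes together held 17 Srd5a2 UMIs in the knockout, 145 in heterozygote 1 and 210 in heterozygote 2. Among kept cells the counts were 12, 140 and 156. Each of the 12 positive knockout cells held a single UMI, whereas 27 cells of each heterozygote held more, with up to 8 UMIs in heterozygote 1 and 6 in heterozygote 2.

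**Figure D1:**
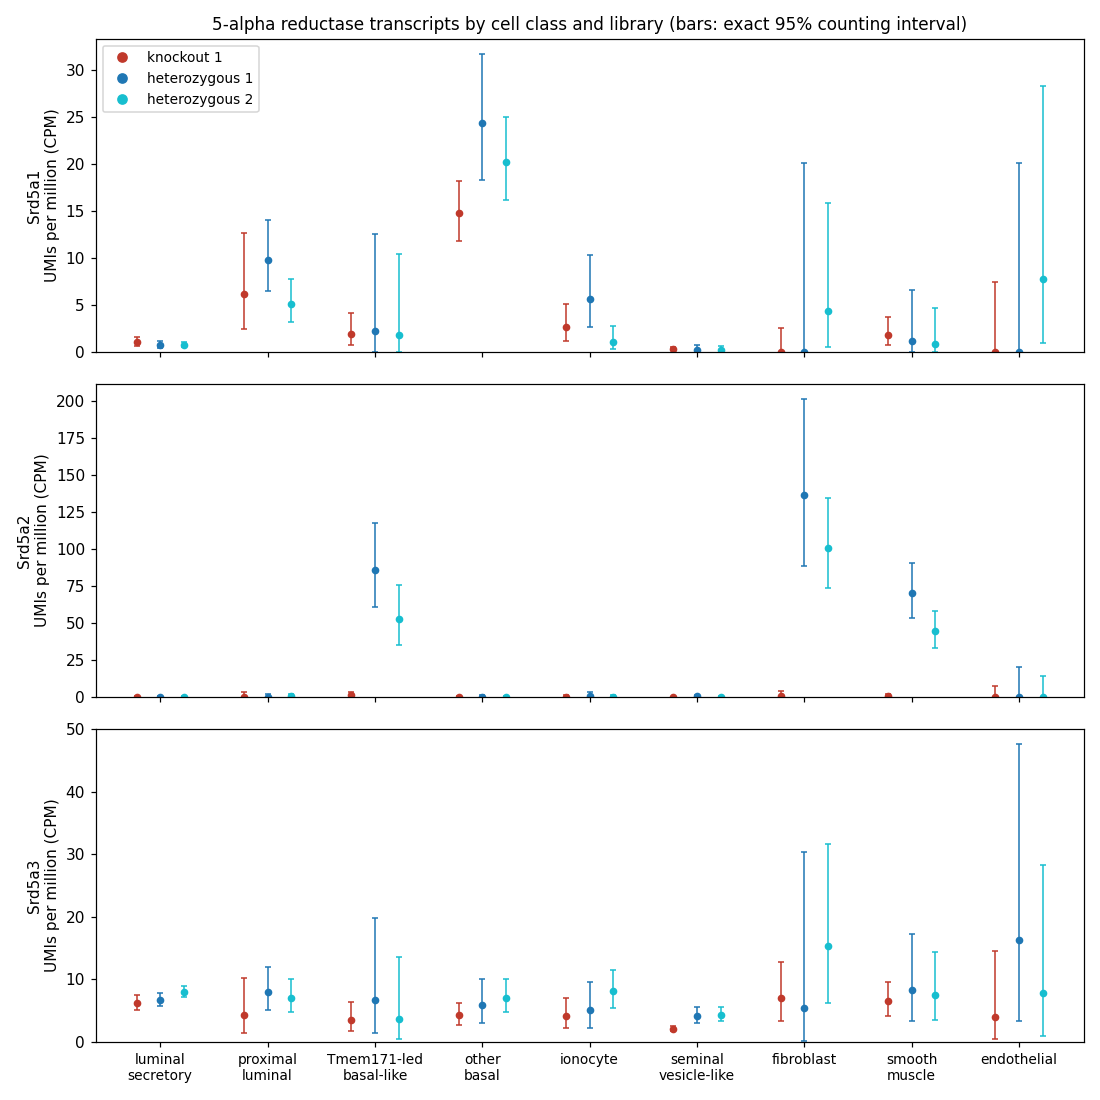
Level of each reductase (vertical axis, CPM, linear) in the classes with at least 50 cells in every library, with basal-like cells split into the cluster led by Tmem171 and the rest. Points are single libraries and bars exact 95% counting intervals. Heterozygous Srd5a2 stands up in fibroblasts, smooth muscle and the Tmem171-led cells, Srd5a1 in the other basal-like cells, and Srd5a3 lies low everywhere.

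In the heterozygotes, Srd5a2 was a transcript of the stroma and of 1 basal-like cluster. Fibroblasts held 25 UMIs in heterozygote 1 and 46 in heterozygote 2, levels of 136 CPM (interval 88.3 to 201) and 101 CPM (73.8 to 134). Smooth muscle held 59 and 53 UMIs, at 70.3 CPM (53.5 to 90.6) and 44.6 CPM (33.4 to 58.3). Stroma, which here means fibroblasts and smooth muscle together, made up 5.22% and 5.01% of heterozygous cells and held 60.0% and 63.5% of their Srd5a2 UMIs. Both heterozygotes therefore had the bulk of this transcript in a small part of their cells.

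The smooth muscle class had 2 clusters, and all of its Srd5a2 lay in the larger. Cells led by Actg2 and Cnn1, genes of the contractile apparatus, held every UMI of the class, at 90.0 CPM in heterozygote 1 and 54.1 CPM in heterozygote 2. Cells led by Pln and S1pr3, which also carried 3 of 5 pericyte markers, held 0 UMIs in each library, which allows up to 3. The upper ends of the intervals there were 11.6 CPM in the knockout and at most 20 CPM in the heterozygotes, below the levels in the heterozygous Actg2-led cells.

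Outside the stroma, Srd5a2 was concentrated in basal-like cells led by Tmem171, Frmpd4 and Egfl6. That cluster was singled out after its values were seen, so it is described with no test. It held all of the basal-like Srd5a2 UMIs, with 5 in the knockout, 38 in heterozygote 1 and 28 in heterozygote 2. The heterozygous levels were 85.7 CPM (60.7 to 118) and 52.4 CPM (34.8 to 75.8), and overlapped those of the Actg2-led smooth muscle in both libraries. A UMI was seen in 24.0% of these cells in heterozygote 1 (exact binomial 95% interval 16.2 to 33.4%) and in 13.1% in heterozygote 2 (8.17 to 19.5%). After thinning each cell to 1000 UMIs the shares were 11.5% and 3.31%, with 0 and 2 shallower cells left out. Secretory luminal cells, at median depths of 9919.5 and 9418 UMIs against the 3203 and 2559 of basal-like cells, held a UMI in 0.287% and 0.244% of cells. The other basal-like cells, led by Krt17 and Lgals7 or by Dlk2 and Trp63, held 0 UMIs in every library, with upper limits of 0.625, 1.66 and 0.866 CPM.

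The Tmem171-led cells carried the basal name on Krt5, Krt14, Krt17 and Lamb3, and none of these was among their 10 leading genes. The summed level of the 8 basal markers there was 4794, 3267 and 2907 CPM, against 5039 and 8816 CPM in the other basal-like clusters of the knockout, 6884 and 9580 CPM in those of heterozygote 1, 3926 and 6451 CPM in those of heterozygote 2, and 154 to 617 CPM in the fibroblasts. Trp63, which encodes the transcription factor p63 of basal cells, was at 82.9, 142 and 78.6 CPM. Fibroblast markers were low: the 7 summed to 46.4, 72.2 and 46.8 CPM. All 7 had a UMI in the knockout and only 2 in each heterozygote, with Col1a1, Col1a2, Lum and Dpt at 0 in both. The same list summed to 8843 to 10886 CPM in the fibroblasts and to 1121 to 2770 CPM in the other basal-like clusters. The 8 smooth muscle markers summed to 282, 129 and 183 CPM in the Tmem171-led cells, and all 8 had a UMI in every library. That list summed to 139 to 751 CPM in the other basal-like clusters and to 60069 to 64424 CPM in the Actg2-led smooth muscle. Of all 15 fibroblast and smooth muscle markers, the Tmem171-led cells with an Srd5a2 UMI held a median of 0 UMIs per 10000 in heterozygote 1 (25 cells) and 2.46 in heterozygote 2 (20 cells), and those without one a median of 0 in both (79 and 133 cells). No stromal marker UMI was seen in 14 of the 25 and 5 of the 20 positive cells. Among the cells without Srd5a2 it was 43 of the 79 and 76 of the 133. In heterozygote 2, stromal marker UMIs were thus more often seen in the positive cells. Positive cells were also deeper, at medians of 3871 and 4499 UMIs against 3386 and 2586, and the part of depth was not tested. The proximal luminal and seminal vesicle lists were higher than in the other basal-like clusters, and the luminal secretory list was lower. The luminal secretory list summed to 2486, 4100 and 12400 CPM in the Tmem171-led cells. In the other basal-like clusters it summed to 3229 and 3664 CPM in the knockout. Those clusters stood at 4844 and 5882 CPM in heterozygote 1 and at 15692 and 16356 CPM in heterozygote 2. The proximal luminal list summed to 2096, 3807 and 4081 CPM against 429 to 880 CPM, with Krt4 at 0 in heterozygote 1. The seminal vesicle list summed to 88236, 62251 and 26337 CPM. In the other basal-like clusters it summed to 32342 and 44978 CPM in the knockout and to 4332 to 11604 CPM in the heterozygotes. In the fibroblasts it summed to 57936, 9981 and 27671 CPM, which in heterozygote 2 was above the Tmem171-led cells. The high sum is therefore not particular to these cells. The part of these markers in the Srd5a2 level was not tested.

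**Figure D2:**
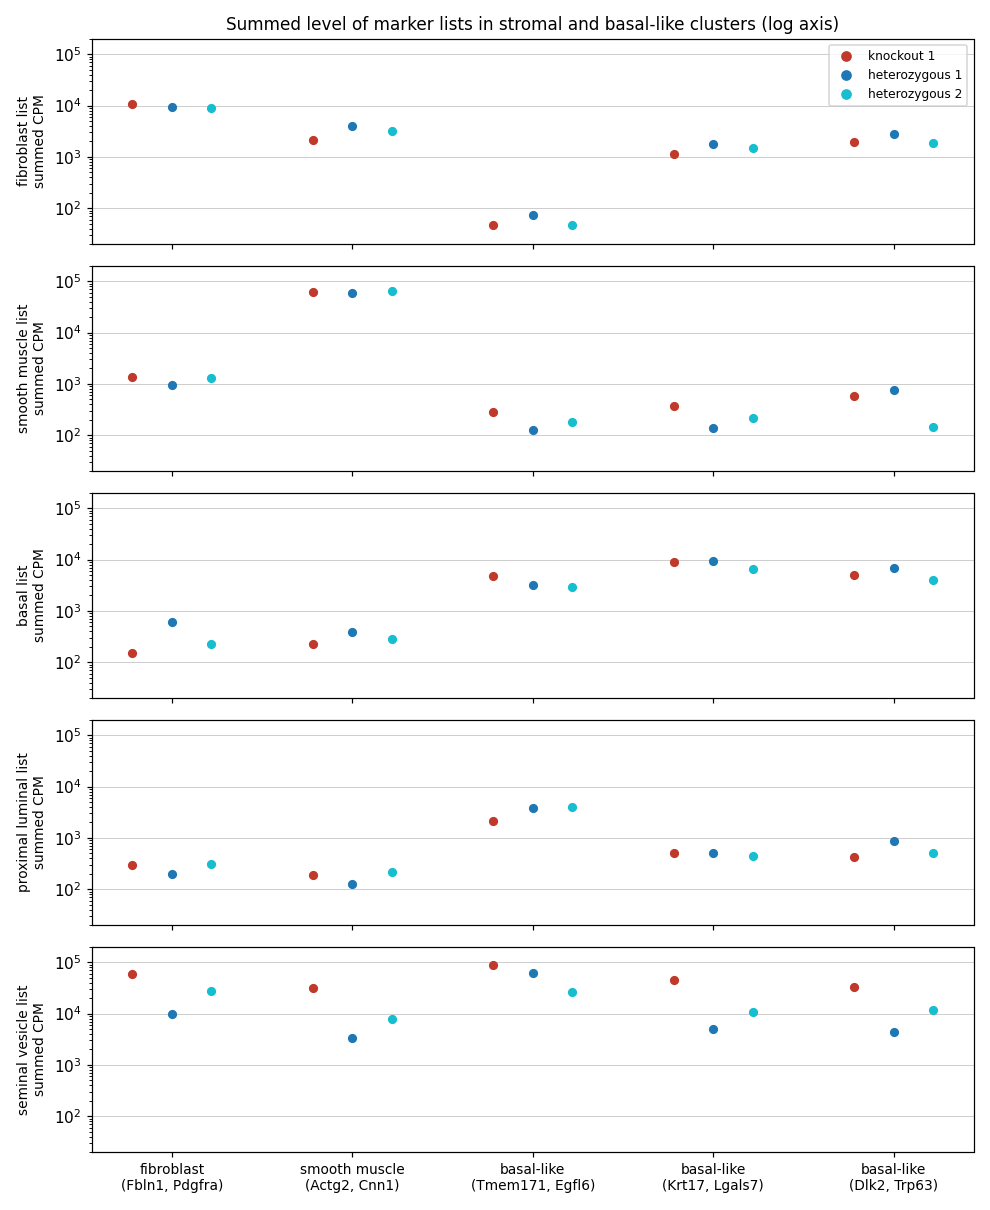
Summed level (vertical axes, CPM, log scale) of 5 marker lists in the clusters that carried Srd5a2 or Srd5a1, 1 point per library. The Tmem171-led basal-like cells had the lowest fibroblast sums, 46.4 to 72.2 CPM, of the 5 clusters drawn.

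Elsewhere Srd5a2 was low. Luminal cells, secretory and proximal together, held 2, 7 and 12 UMIs, at 0.105, 0.256 and 0.254 CPM. Barcodes under 500 genes, which hold mostly free RNA, had 3.13 CPM in heterozygote 2 on 7 UMIs (1.26 to 6.46), above the luminal value of that library, and 0.450 CPM on 1 UMI in the knockout. Heterozygote 1 had 2 such barcodes, with 0 UMIs, and gives no such level. The luminal level is at or below that of shallow barcodes where it can be compared, and is not read as expression. Seminal vesicle-like cells held 0, 8 and 5 UMIs and ionocytes, cells rich in proton pumps, 0, 1 and 1. Endothelial cells, macrophages, T or NK cells and dendritic cells held 0 in every library, each of which allows up to 3.

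Stroma and epithelium were compared with edgeR in the 2 heterozygotes, with the library as a block. Srd5a2 stood at 82.1 and 60.2 CPM in the stroma and at 1.5 and 0.770 CPM in the epithelium (luminal and basal-like cells). Its level was higher in the stroma by 5.90 ± 0.27 on the log2 scale (edgeR adjusted p = 3.80e-102). By the same rule 24.1% of the 15353 genes tested were higher in the stroma. Without the Tmem171-led cells the epithelium fell to 0.237 and 0.233 CPM and the difference was 8.03. Srd5a1 leaned to the epithelium, at 0.978 and 1.82 CPM in the stroma against 3.40 and 2.73 CPM, but did not pass (-1.12 ± 0.79, edgeR adjusted p = 0.236). Only 1 and 3 stromal UMIs lie behind its values. With the knockout library added, Srd5a1 passed at -1.42 (edgeR adjusted p = 0.0244), and under a looser cell filter the difference was 0.02. Srd5a3 stood at 7.82 and 9.72 CPM in the stroma and 6.74 and 7.85 CPM in the epithelium, a difference of 0.16 ± 0.39 (edgeR adjusted p = 0.770).

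**Figure D3:**
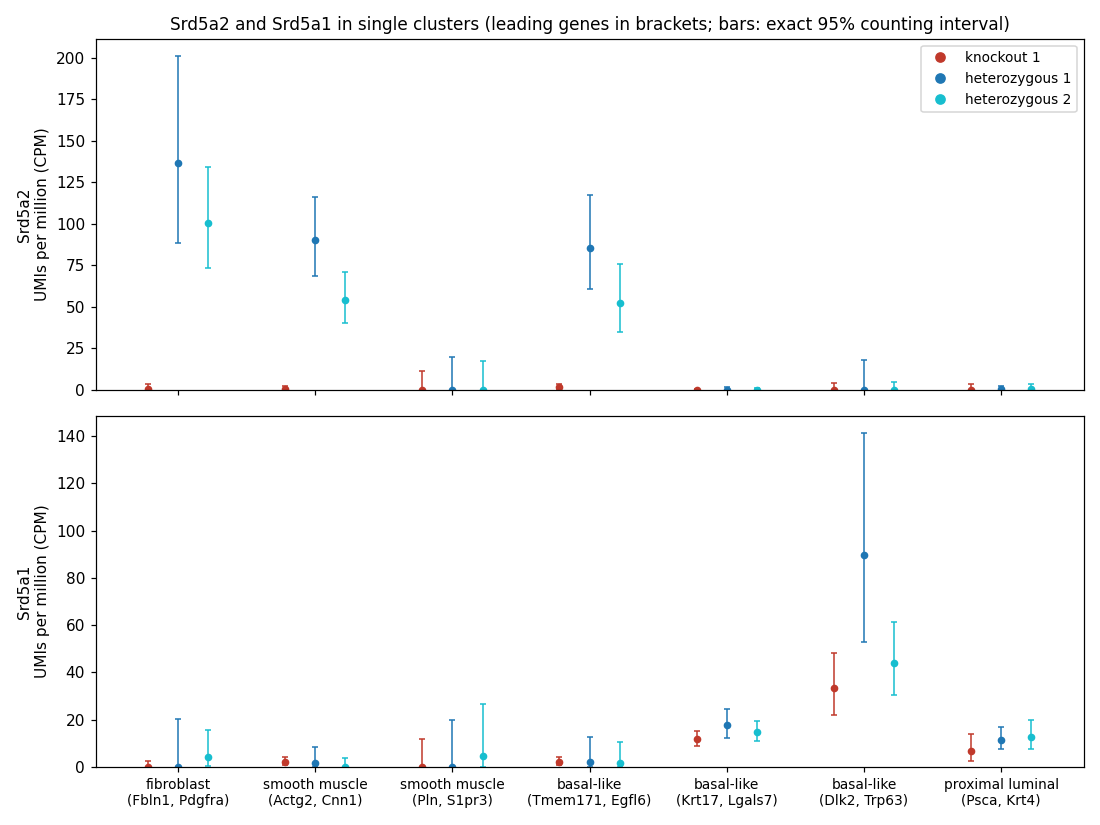
Srd5a2 (top) and Srd5a1 (bottom) in single stromal, basal-like and proximal luminal clusters, as CPM on linear axes with exact 95% counting intervals, 1 point per library. The 3 clusters with high heterozygous Srd5a2 have Srd5a1 between 0 and 4.38 CPM, while the Dlk2-led and Krt17-led basal-like clusters have no Srd5a2 UMI and Srd5a1 between 11.7 and 89.5 CPM.

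Loss of Srd5a2 in the knockout was seen in each cell type that carried it. Fibroblasts held 1 UMI (0.698 CPM) against 25 and 46, which is 159-fold lower than in the heterozygotes (interval 27.6 to 6372). edgeR gave -6.91 ± 0.73 on the log2 scale (adjusted p = 3.59e-18), where 0.951% of 7254 genes were called lower. Smooth muscle held 3 UMIs (0.779 CPM) against 59 and 53, or 70.9-fold lower (23.6 to 349), at -5.92 ± 0.53 (edgeR adjusted p = 7.04e-26, with 2.64% of 9476 genes lower). Neither call held with limma-voom (adjusted p = 0.354 and 0.108). Basal-like cells held 5 UMIs against 38 and 28, at -3.92 ± 0.61 (edgeR adjusted p = 1.91e-08, with 2.18% of 12220 genes lower). Under the looser cell filter, where the Tmem171-led cells took no name, and in the fit without them, basal-like Srd5a2 was not tested. Within the Tmem171-led cells, which held all of these UMIs, the level of 1.61 CPM was 41.9-fold lower than in the heterozygotes (17.1 to 133). In seminal vesicle-like cells 0 UMIs stood against 13. That is 8.14-fold lower or more by the exact interval, and 11.6-fold with 3 UMIs set as the floor for the knockout. The pooled heterozygous level there, 0.532 CPM, lay below the 3.13 CPM of shallow barcodes in heterozygote 2 and is not read as expression. Srd5a2, as the targeted gene, checks the label here and entered these fits only through its heterozygous counts.

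The few UMIs left in the knockout lay mostly in the same clusters. Of the 12 in kept cells, 9 were in the fibroblasts, the Actg2-led smooth muscle and the Tmem171-led basal-like cells, which were 1700 of 8903 cells. Their level there was 1.11 CPM (0.510 to 2.12), against 0.0304 CPM (0.00627 to 0.0889) in all other clusters. In the heterozygotes the same 3 clusters stood at 95.2 and 64.5 CPM. Since the deleted part is not given, these counts do not tell whether an intact transcript was present.

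Among the classes with at least 50 cells in every library, the level of Srd5a1 was highest in basal-like cells. These held 93, 55 and 87 UMIs (knockout, heterozygote 1, heterozygote 2), which was 57.8%, 44.0% and 52.4% of all Srd5a1 UMIs from 20.6%, 16.1% and 16.8% of cells. Levels in the class were 10.3 CPM (8.34 to 12.7), 20.6 CPM (15.5 to 26.8) and 18.2 CPM (14.5 to 22.4). The knockout lay below both heterozygotes, and its interval did not overlap theirs.

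Among basal-like clusters the order was the same in every library. Cells led by Dlk2 and Trp63, regulators of growth and of basal identity, had the highest Srd5a1, at 33.3, 89.5 and 44.0 CPM. Cells led by Krt17, Lgals7 and Krt14 followed at 11.7, 17.8 and 14.7 CPM, with intervals below those of the Dlk2-led cells in all 3 libraries. The Tmem171-led cells came last at 1.93, 2.26 and 1.87 CPM on 6, 1 and 1 UMIs. The clusters with Srd5a2 and those with Srd5a1 were thus separate, as the plot of both genes by cluster shows. Over all kept cells, 0, 0 and 1 cells held UMIs of both genes, out of 494, 442 and 757 cells with a UMI of any of the 3. These counts are too thin to read absence from.

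Among luminal cells the level of Srd5a1 was higher in 1 proximal cluster. Proximal luminal cells, which line the ducts near the urethra, held 7, 29 and 21 UMIs at 6.15, 9.75 and 5.12 CPM. Their Psca-led cluster held 7, 28 and 19 of these UMIs and stood at 6.84, 11.6 and 12.7 CPM, with intervals that overlapped those of the Krt17-led basal-like cells in each library. A second large proximal cluster, led by Cxcl17 and Wfdc2, held 0, 0 and 2 UMIs from 6, 60 and 401 cells, at 0.843 CPM in heterozygote 2 (0.102 to 3.04). Secretory luminal cells, which make the prostatic fluid, were at 1.06, 0.740 and 0.790 CPM on 19, 18 and 34 UMIs. Ionocytes stood between, at 2.69, 5.61 and 1.08 CPM. Seminal vesicle-like cells had 0.352, 0.198 and 0.209 CPM, smooth muscle 1.82, 1.19 and 0.841 CPM on 7, 1 and 1 UMIs, and fibroblasts 0, 0 and 2 UMIs. Barcodes under 500 genes had 0.450 CPM of Srd5a1 on 1 UMI in the knockout and 1.34 CPM on 3 UMIs (0.277 to 3.93) in heterozygote 2. In heterozygote 2 the secretory luminal, smooth muscle and seminal vesicle-like levels lay below this value. The part of free RNA in them was not tested.

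Srd5a1 did not pass between genotypes in the classes where it was tested. In luminal cells the difference was -0.05 ± 0.53 (edgeR adjusted p = 1.0), where 1.89% of 16851 genes were called in either direction. In basal-like cells it was -0.78 ± 0.30 (edgeR adjusted p = 0.129), where 4.58% of genes were called. On plain library totals with no scaling factor the basal-like difference passed, at -0.90 (edgeR adjusted p = 0.0484), and without the Tmem171-led cells it was -0.47 (adjusted p = 0.641). Those cells, low in Srd5a1, made up 32.0% of basal-like cells in the knockout against 14.3% and 9.68% in the heterozygotes. In the other basal-like cells the levels were 14.7, 24.3 and 20.2 CPM, a knockout to heterozygote ratio of 0.683 (0.517 to 0.899, counting error only). Against heterozygote 1 alone, without heterozygote 2, the basal-like difference was -0.97, with no test.

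**Figure D4:**
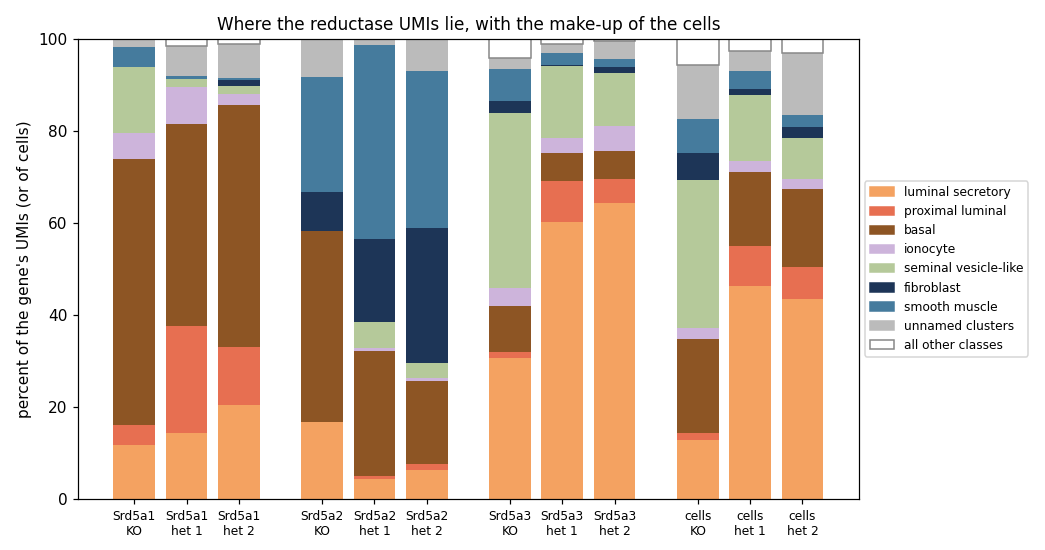
Share of each reductase's UMIs by cell class, and the share of cells by class (vertical axis, percent), for the knockout (KO) and the 2 heterozygotes (het 1, het 2). Basal-like cells take 44.0 to 57.8% of Srd5a1 UMIs and stroma 60.0 and 63.5% of heterozygous Srd5a2 UMIs, while the Srd5a3 bars follow the make-up of the cells more closely. The knockout Srd5a2 bar rests on 12 UMIs.

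Srd5a3 UMIs were seen at a low level in nearly every class. Secretory luminal cells held 112, 162 and 347 UMIs, at 6.26 CPM (5.15 to 7.53), 6.66 CPM (5.67 to 7.77) and 8.06 CPM (7.23 to 8.95). Basal-like cells were at 4.0, 6.0 and 6.68 CPM, proximal luminal cells at 4.39, 8.07 and 7.06 CPM, and ionocytes at 4.19, 5.05 and 8.09 CPM. Smooth muscle stood at 6.49, 8.34 and 7.57 CPM and fibroblasts at 6.98, 5.46 and 15.3 CPM, the latter on 10, 1 and 7 UMIs. Over the 18 clusters with at least 50 cells in each heterozygote, the median was 5.72 CPM in heterozygote 1 (range 4.16 to 16.3) and 7.55 CPM in heterozygote 2 (0 to 15.3). A secretory luminal cluster led by H2-Q10 and Msmb, at 5.85, 12.0 and 12.2 CPM on 11, 36 and 52 UMIs, lay above the median in each heterozygote. The tops of the ranges were endothelial cells in heterozygote 1, on 3 UMIs, and fibroblasts in heterozygote 2, on 7 UMIs. Macrophages held 8, 0 and 1 UMIs and T or NK cells 4, 0 and 0, too few to place in an order. Barcodes under 500 genes held Srd5a3 at 3.60 CPM (1.56 to 7.10) in the knockout and 4.48 CPM (2.15 to 8.23) in heterozygote 2. The levels of secretory luminal, basal-like and seminal vesicle-like cells in these libraries lay inside those intervals. The part of free RNA in them was not tested.

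Srd5a3 did not pass between genotypes in the classes tested, though each estimate was lower in the knockout. The difference was -0.25 ± 0.33 in luminal cells (edgeR adjusted p = 1.0) and -0.56 ± 0.45 in basal-like cells (edgeR adjusted p = 0.712). In seminal vesicle-like cells it was -0.18 ± 0.36 (edgeR adjusted p = 0.914), where 3.03% of 12691 genes were called. The plain levels in that class were 2.13, 4.16 and 4.32 CPM, a ratio of 0.50 (0.385 to 0.652, counting error only). With plain totals the difference was -0.99 (edgeR adjusted p = 0.0746), and the median gene of the class then moved by -0.84, against -0.02 with TMM scaling. On plain totals 136 genes of this class were called higher and 4413 lower, against 220 and 164 with TMM. In the 2 seminal vesicle-like clusters that every library shared, the levels lay closer: 3.81, 4.17 and 4.53 CPM in cells led by Pate8, and 3.34, 4.24 and 3.69 CPM in cells led by Sprr2f. On plain counts the Srd5a3 ratio was 0.814 (0.661 to 0.995) in luminal cells and 0.622 (0.392 to 0.978) in basal-like cells, counting error only. Over all kept cells the ratio was 0.515 (0.454 to 0.583), where the make-up of the cells also differed.

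**Figure D5:**
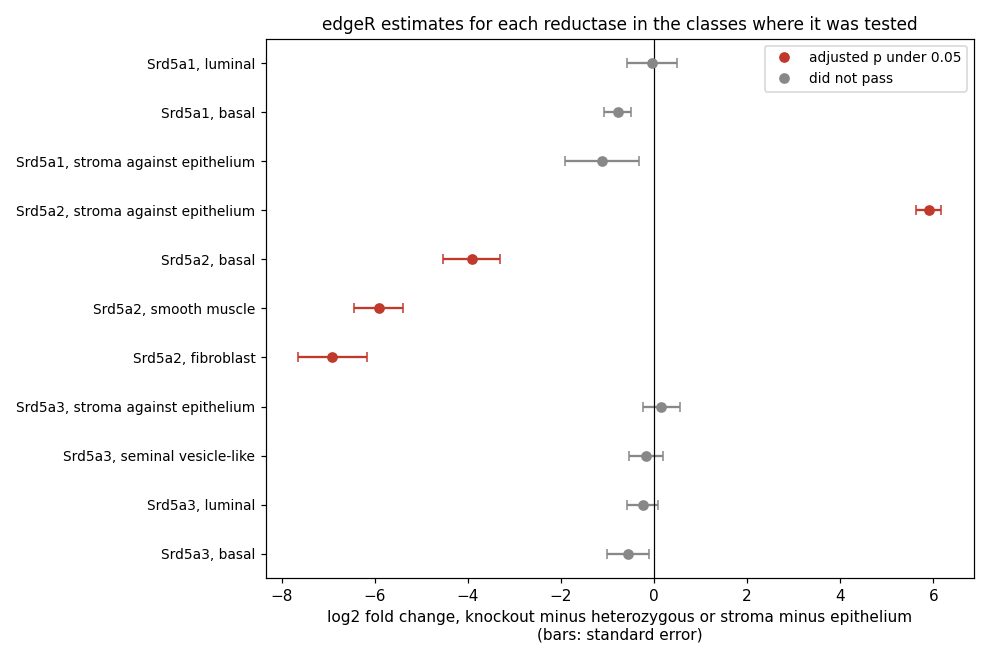
edgeR log2 fold changes with standard errors for each reductase where it was tested, knockout minus heterozygous by class, or stroma minus epithelium in the heterozygotes. Filled red points passed at an adjusted p under 0.05: these are Srd5a2 in fibroblasts, smooth muscle and basal-like cells, and Srd5a2 in stroma against epithelium.

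In all, 8 of the 18 pairs of gene and fitted class passed the filter on low counts, and the rest are given by their counts. Plain totals moved the median gene by -0.12 in basal-like cells, -0.17 in fibroblasts and -0.16 in smooth muscle, and the calls then split 208 higher and 372 lower, 25 and 87, and 115 and 348, against 293 and 267, 34 and 69, and 189 and 250 with TMM scaling. In luminal cells the calls split 119 higher and 199 lower with TMM scaling and 114 and 198 on plain totals. In stroma against epithelium they split 3701 and 3739 with TMM scaling and 3965 and 3180 on plain totals.

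Genes around the reductases were counted from 6 lists of 76 genes: steroid synthesis, androgen and steroid breakdown, steroid receptors, dolichol and lipid-linked oligosaccharides, related reductases, and NADPH supply. In stroma against epithelium, 24 of the 52 tested were called by edgeR and 18 by DESeq2, where edgeR called 48.5% of all genes tested. Steroid receptors showed 2 of 6 higher and 1 lower in the stroma. Nr3c1, the glucocorticoid receptor, was higher, at 99.7 and 79.6 CPM against 39.4 and 42.4 CPM. Esr1, estrogen receptor alpha, was lower in the stroma, at 42.0 and 39.5 CPM against 71.3 and 72.3 CPM.

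Among 11 tested genes of androgen and steroid breakdown, 2 were higher and 2 lower in the stroma. Over all genes tested, 24.1% were higher in the stroma and 24.4% lower, and no list was tested as a set. Hsd11b1, which regenerates active glucocorticoid, stood at 28.4 and 57.7 CPM in the stroma against 0.467 and 0.269 CPM (6.85 ± 0.37, edgeR adjusted p = 2.15e-72). Sult1e1, the estrogen sulfotransferase, was at 10.8 and 24.3 against 2.27 and 1.56 CPM. Akr1c12 and Akr1c13, aldo-keto reductases, were lower. Akr1c12 stood at 0 and 1.22 CPM against 7.71 and 6.41 CPM, and Akr1c13 at 0 and 3.04 CPM against 7.14 and 7.06 CPM. Of 7 tested genes of steroid synthesis 3 were lower, among them Por, the electron donor of microsomal P450 enzymes, at 77.2 and 89.9 against 169 and 174 CPM. All 4 calls among 5 genes of NADPH supply were lower, such as G6pdx, the entry enzyme of the pentose phosphate pathway, at 6.84 and 9.72 against 31.3 and 27.6 CPM.

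The dolichol list, the setting of Srd5a3, had 22 genes tested, with 1 higher and 9 lower in the stroma, where 24.4% of all genes tested were lower, and a median of -0.78 against -0.13 over all genes tested. The other 12 genes were not called, and the difference of Srd5a3 was 0.16. Dpagt1, which starts the lipid-linked sugar chain, stood at 2.93 and 7.29 CPM in the stroma against 18.4 and 25.3 CPM, and Mpdu1, needed for the use of dolichol-linked sugars, at 9.78 and 24.3 against 55.6 and 49.5 CPM. Alg14, a partner in the second step of the chain, was the gene called higher, at 36.2 and 18.8 against 12.2 and 13.1 CPM.

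Between genotypes, 1 of 55 genes of these lists passed in luminal cells (2 at an unadjusted p under 0.05, 0 by DESeq2), where 1.89% of all genes did: Pgr, the progesterone receptor, was higher in the knockout at 4.99 CPM against 1.94 and 1.21 CPM (1.70 ± 0.41, edgeR adjusted p = 0.00411). In basal-like cells 3 of 47 passed with edgeR, all lower, and 1 with DESeq2, which was Sult1e1, where edgeR called 4.58% of all genes. These shares say nothing particular about the lists. Cyp17a1, the lyase that opens the way to androgens, had 0 UMIs against 24 and 7, or 9.0 and 1.46 CPM in the heterozygotes, with none in the Tmem171-led cells. It passed the filter on low counts only through the heterozygotes, which differed between themselves, so its call carries no weight here. Cyb5a, cytochrome b5, was at 44.7 CPM against 66.3 and 94.1 CPM (-0.74 ± 0.23, edgeR adjusted p = 0.0295). Sult1e1 was at 2.56 CPM against 21 and 11.9 CPM (-2.51 ± 0.38, edgeR adjusted p = 1.04e-08). Like Srd5a2, it lay in the Tmem171-led cells, which held 22 of 23 basal-like UMIs (knockout), 52 of 56 (heterozygote 1) and 54 of 57 (heterozygote 2), at 7.09, 117 and 101 CPM.

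In smooth muscle 1 of 34 passed with edgeR and 0 with DESeq2: Me1, malic enzyme, a source of NADPH, at 25.4 CPM in the knockout against 67.9 and 46.2 CPM (-0.99 ± 0.30, edgeR adjusted p = 0.0282). In seminal vesicle-like cells 2 of 49 passed with both tools, where edgeR called 3.03% of all genes. Different clusters held most of this class in the knockout and in the heterozygotes, and the part of that in both calls was not tested. Sult2b1, a sulfotransferase of steroids, was lower at 0.368 against 4.36 and 3.83 CPM (-2.65 ± 0.51, edgeR adjusted p = 0.0194), and Esr1 higher at 8.41 against 4.46 and 4.88 CPM (1.66 ± 0.29, edgeR adjusted p = 0.0136). In fibroblasts 0 of 29 passed with edgeR (3 at an unadjusted p under 0.05, 0 by DESeq2), and in endothelial cells 0 of 14 (0 and 0). Here 1.42% of all fibroblast genes and 1.20% of endothelial genes were called, against 4.63% in smooth muscle. Each of the named calls had the same direction on plain CPM.

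The steps next to 5-alpha reduction were thinly seen. Akr1c14, which removes dihydrotestosterone by 3-alpha reduction, had its highest level in endothelial cells, at 16.2, 16.3 and 15.6 CPM on 8, 3 and 4 UMIs, and lay at up to 2.26 CPM in other classes. In heterozygote 2 the many secretory luminal cells held 8 UMIs of it, at 0.186 CPM. Hsd17b6 had at most 4 UMIs in any class and library, Akr1c6 at most 2, and Hsd3b1 a single UMI in all.

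Genes with a like pattern over the classes were sought in each heterozygote on its own, by Pearson correlation of log2(CPM + 1) over 8 and 10 classes and 11303 genes. The classes share their libraries and depth, and basal-like cells count as 1 class here, so the values are descriptions. For Srd5a2 the likest were Twist2, a transcription factor of mesenchyme (r = 0.991 and 0.992), Medag, Dclk1, Fzd2, a Wnt receptor, and Matn2, an extracellular matrix protein. For Srd5a1 they were Gstp2 (0.874 and 0.926), Galnt14, Zfp54, Ube2d2a and Pkp1, a desmosome protein. For Srd5a3 they were Bmi1 (0.896 and 0.875), Kpna6, Ccdc163, Wsb2 and Tsen34.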

How the data were processed

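Whole prostates of 1 Srd5a2 knockout and 2 Srd5a2 heterozygous libraries were measured by 10x Genomics single-cell RNA sequencing, grouped by genotype label. The authors deposited unnormalized UMI counts for each gene in each barcode. Cell Ranger 3.1.0 and mm10 are named in the submitters' processing notes. The chemistry, the cell calling and the number of animals are not given in the sources. The members, lists and tests were chosen with earlier results of these data known. Of the files' gene IDs, 31875 of 32594 matched GENCODE vM21.

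Kept barcodes had 500 genes or more and no more than 15% of UMIs from mitochondrial genes. Doublets were scored by their share of simulated doublets among neighbours (a re-implementation of Scrublet's score), and the top share at 0.8% per 1000 cells was removed (9.81%, 4.11% and 10.2% called). Leaving out the 3 genes and 70 genes abundant in shallow barcodes (at least 0.1% of their UMIs each), 2000 variable genes, 30 components and 20 neighbours gave Leiden clusters at resolution 1.0 (igraph 0.11.9). Clusters were named on at least 3 markers at log2 fold 1.0 and in 25% of cells. The 3 libraries gave medians of 4282, 6928 and 4465 UMIs per cell.

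UMIs were summed per class and library, and classes with at least 50 cells in each library were tested with edgeR 4.0.16 (filterByExpr, TMM, quasi-likelihood, Benjamini-Hochberg over all genes tested, threshold 0.05), with 1 residual degree of freedom, so the lone knockout is assumed to vary like the heterozygotes. Macrophages were not fitted, with 29 cells in heterozygote 1. Ratios carry exact conditional intervals at 95%, and 3 UMIs stand for a count of 0. On simulated counts for the comparisons of luminal, basal-like, fibroblast and smooth muscle cells, 66%, 71%, 66% and 76% of 4-fold changes were recovered. Those counts had a fixed spread not estimated from these data, and only genes above a floor of expected UMIs were changed. The rates do not describe the sparser pairs of reductase and class. Named pathway genes were those called, at most 3 per list, class and direction by size, plus Akr1c14, Hsd17b6, Hsd3b1, Akr1c6 and Cyp17a1, and the 5 genes of likest pattern. 1 listed gene that the rule names is not reported here. Alternatives were DESeq2 1.42.0, limma-voom (limma 3.58.1), other scaling, filters, clusterings and left-out libraries. Plain totals and both settings without the Tmem171-led cluster were chosen after seeing the data.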

Additional observations from a re-analysis of the deposited data

Results flagged for a closer look

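Srd5a2 UMIs were also seen in data outside the named classes. Barcodes not kept as cells held 1.47 CPM of Srd5a2 in heterozygote 1 (5 UMIs) and 2.33 CPM in heterozygote 2 (54 UMIs), above the 0.224 CPM (0.0728 to 0.524) of the knockout's. Clusters with no name held 2.24 CPM in heterozygote 1 (2 UMIs) and 2.11 CPM in heterozygote 2 (11 UMIs), above the knockout's 0.338 CPM (0.00857 to 1.89). The intervals of the heterozygotes, 0.271 to 8.09 CPM and 1.05 to 3.78 CPM, overlap the knockout's, and the count in heterozygote 1 is under the floor of 3 UMIs. The 11 positive cells of heterozygote 2 held a median of 10.7 UMIs of the 15 stromal markers per 10000, against 3.31 in its other unnamed cells, and the part of these markers was not tested. Srd5a1 in the knockout lay above both heterozygotes in secretory luminal cells, at 1.06 CPM against 0.740 and 0.790 CPM, and below both in basal-like cells, at 10.3 CPM against 20.6 and 18.2 CPM. This difference between the classes was not tested, and the counting intervals of the luminal values overlap.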

How the results depend on the processing

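Over 11 tested results and 166 alternative values, Srd5a2 in stroma against epithelium passed in 16 of 16 alternatives with a p. Srd5a2 in the knockout entered its fits only through heterozygous counts, so passes under other settings are not counted as support. With limma-voom the fibroblast difference was -6.65 (adjusted p = 0.354) and the smooth muscle difference -5.78 (adjusted p = 0.108), and Srd5a1 in luminal cells turned to 0.0271. Srd5a1 in basal-like cells passed on plain library totals (-0.90). Srd5a1 in stroma against epithelium passed with all 3 libraries (-1.42) and turned to 0.0222 under the looser cell filter. Srd5a3 in stroma against epithelium turned to -0.0113 with no filter on low counts. The cause was not tested in these cases.

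Leaving out each heterozygote in turn gave -0.97 to -0.79 for Srd5a1 in basal-like cells, -0.32 to 0.22 in luminal cells and -1.71 to -0.56 in stroma against epithelium. The ranges for Srd5a2 were -3.99 to -2.75 in basal-like cells, -5.28 to -4.85 in fibroblasts, -5.31 to -4.66 in smooth muscle and 5.69 to 6.12 in stroma against epithelium. Those for Srd5a3 were -0.69 to -0.54 in basal-like cells, -0.37 to -0.15 in luminal cells, -1.0 to -0.95 in seminal vesicle-like cells and 0.21 to 0.30 in stroma against epithelium. These are differences of log2 CPM with a prior count of 2 and no test, since no residual degrees of freedom remain. The 79 alternative values of the 9 pairs given as a ratio all lay inside the counting interval. Some of these intervals were wide, such as 0.351 to 18.2 for Srd5a1 in smooth muscle. Values from nearly the same few UMIs could hardly leave them, so this is a weak check.

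Counts of genes called moved with the tool. Luminal calls went from 318 to 210 with median-ratio size factors, 107 with DESeq2, 176 with limma-voom and 152 with a common depth floor. Basal-like calls went from 560 to 73 with DESeq2, 301 with the looser filter and 302 without the Tmem171-led cluster. Fibroblast calls went from 103 to 19 with DESeq2, 2 with limma-voom and 276 with doublets kept, and smooth muscle calls from 439 to 43 and 153 with DESeq2 and limma-voom. Seminal vesicle-like calls went from 384 to 837 with no count filter, 998 at Leiden resolution 0.5, 637 with the looser cell filter, 729 with the depth floor and 4549 on plain totals. Endothelial calls went from 59 to 8 with DESeq2, 6 with limma-voom, 5 with doublets kept, 107 with the looser and 11 with the stricter cell filter. Stroma against epithelium stayed between 4986 and 8690 around 7440.

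Basal-like Srd5a2 gave no value under the looser cell filter or without the Tmem171-led cluster, and fibroblasts none under the common depth floor, which left 42 cells in heterozygote 2. No paired analysis was possible because there is 1 knockout library and the labels carry no replicate numbers (the numbers used here are only names in accession order). Without the library as a replicate block, stroma against epithelium gave 5.88 for Srd5a2, -1.15 for Srd5a1 and 0.17 for Srd5a3, with no change of call. Depth limits these data: 12 Srd5a2 UMIs in the knockout and at most 3 stromal Srd5a1 UMIs in a heterozygote.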
